A study of Mus musculus with 16 samples.

Results

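MBD3 is a subunit of NuRD, the nucleosome remodelling and deacetylase complex, which joins histone deacetylation to chromatin remodelling. Its methyl-CpG-binding domain (MBD) is related to the domains with which other family members read methylated DNA, and its coiled coil is a protein contact surface. In mouse embryonic stem cells (ESCs), leukaemia inhibitory factor (LIF) maintains self-renewal through STAT3, and cells deprived of it leave the naive state; cells without MBD3 keep stem cell genes on for longer after LIF is removed. The question here was how far MBD3a that has lost its MBD but kept its coiled coil can stand in for MBD3 once LIF is gone.

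The line in question, Mbd3a(deltaMBD) in the labels and called MBD-deleted below, was set against the 4 other lines with a coiled coil: EBRTcH3, Mbd3a, Mbd3b and Mbd3c. EBRTcH3, which has its own Mbd3 gene and was the wild type, consists of male ESCs (strain 129SV). All other lines were derived from it as Mbd3abc-KO cells, which make none of the MBD3 isoforms, and carry a stably integrated vector for MBD3a, MBD3b or MBD3c, for MBD3a without the MBD, for MBD3a without the coiled coil (CC-deleted), for MBD3a without either (MBD-and-CC-deleted), or for no protein (Empty). Every line was grown with LIF and for 12 days without it. Each line gave 1 array in each medium, so the comparison rests on 5 of the 16 arrays, and the 3 lines without a coiled coil served for placement. The sources used here name no second culture, do not say whether a line is 1 clone, and do not give the borders of the deletions, so a difference between MBD-deleted and the others cannot be told apart from a difference between single lines or single arrays. MBD-deleted, CC-deleted and MBD-and-CC-deleted also carry sample titles numbered 15 to 20, the other lines 1 to 10; whether the numbers mark separate preparations is not given.

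A gene was counted as outside when the log2 signal of MBD-deleted without LIF lay above the highest or below the lowest of the 4 lines by a gap of 1 or more, that is by 1 doubling. Of 22872 genes with a measurable signal, 45 were outside, 14 above (0.0612%) and 31 below (0.136%). Measured in the same way, Empty had 599 genes outside (2.62%), CC-deleted 469 (2.05%) and MBD-and-CC-deleted 573 (2.51%). The gap chose the genes, so the levels of these 45 without LIF are a description; the arrays with LIF were not used in the choice.

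Mbd3 itself was measured at log2 signals without LIF of 9.17, 8.96, 9.59 and 8.57 in EBRTcH3, Mbd3a, Mbd3b and Mbd3c, 8.56 in MBD-deleted, 9.02 in CC-deleted, 8.45 in MBD-and-CC-deleted and 7.45 in Empty. With LIF it was 8.96 in MBD-deleted and 7.00 in Empty. Empty was thus the lowest in both media, and MBD-deleted sat at the lower edge of the 4 lines without LIF. Which part of the transcript the probe set reads is not given, so the deletion itself was not checked by it. The cells carried the markers of ESCs in both media: Pou5f1, the central pluripotency factor, was at 12.29 to 12.50 in the 4 lines and 12.56 in MBD-deleted with LIF, and at 11.93 to 12.28 and 12.33 without. Zfp42, a marker of the naive state, was at 12.10 to 12.39 and 12.15 with LIF, and at 10.41 to 11.07 and 11.50 without it.

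Promoters of 4 genes described below are given as examples from both sides of the comparison, not as typical of their side. Ptch1 and Hhip are hedgehog pathway genes above the range of the 4 lines. Nrk and Zim1, a placental kinase and an imprinted zinc finger gene, lie below it. Each promoter is 300 bases, from 250 before to 50 after the annotated start in RefSeq (GRCm38.p6). Each CG dinucleotide, the site of DNA methylation, is in capitals. Ptch1 lies at chr13:63565686-63565985 on the minus strand with 47 CG sites, Hhip at chr8:80057959-80058258 on the minus strand with 30, Nrk at chrX:138914180-138914479 on the plus strand with 31 and Zim1 at chr7:6696383-6696682 on the minus strand with 20.
Ptch1: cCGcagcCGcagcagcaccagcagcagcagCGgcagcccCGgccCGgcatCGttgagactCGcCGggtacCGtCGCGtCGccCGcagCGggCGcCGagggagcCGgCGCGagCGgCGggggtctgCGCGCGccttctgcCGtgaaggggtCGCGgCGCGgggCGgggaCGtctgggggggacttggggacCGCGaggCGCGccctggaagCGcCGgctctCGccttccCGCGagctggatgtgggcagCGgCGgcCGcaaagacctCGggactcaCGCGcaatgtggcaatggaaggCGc
Hhip: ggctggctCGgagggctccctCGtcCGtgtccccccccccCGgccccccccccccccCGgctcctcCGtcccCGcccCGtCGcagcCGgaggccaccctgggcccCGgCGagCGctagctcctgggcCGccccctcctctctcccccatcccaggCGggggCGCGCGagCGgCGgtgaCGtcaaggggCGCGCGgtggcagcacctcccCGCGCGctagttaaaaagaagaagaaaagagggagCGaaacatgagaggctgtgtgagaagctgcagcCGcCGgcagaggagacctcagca
Nrk: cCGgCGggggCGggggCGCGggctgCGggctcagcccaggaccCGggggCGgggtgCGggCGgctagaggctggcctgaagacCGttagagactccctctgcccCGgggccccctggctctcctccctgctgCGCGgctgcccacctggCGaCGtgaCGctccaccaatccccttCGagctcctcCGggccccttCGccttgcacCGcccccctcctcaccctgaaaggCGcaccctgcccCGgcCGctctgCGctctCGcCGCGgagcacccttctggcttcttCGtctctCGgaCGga
Zim1: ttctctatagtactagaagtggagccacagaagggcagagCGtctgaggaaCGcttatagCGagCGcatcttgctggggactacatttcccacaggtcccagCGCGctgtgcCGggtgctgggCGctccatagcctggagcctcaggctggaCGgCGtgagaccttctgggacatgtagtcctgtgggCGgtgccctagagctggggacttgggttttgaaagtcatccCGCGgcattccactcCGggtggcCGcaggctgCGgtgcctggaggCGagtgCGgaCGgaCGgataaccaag
DNA methylation and MBD3 binding were not measured in this series. A promoter entry was at hand for 11 of the 14 genes above, 23 of the 31 below and 14234 of all 22872. The median number of CG sites was 30 (quartiles 9 and 43.5) above, 13 (7.5 and 19) below and 18 (7 and 27) over all. Nrk, with 31, had the most among the genes below, and Zim1, with 20, lay over their upper quartile. Genes without an entry are left out and no test was made, so these medians are a description. The binding motif of GLI factors, GACCACCCA or TGGGTGGTC on the other strand, was not in the promoter of any of the genes outside the range with an entry, nor in those of 20 hedgehog pathway genes. It was in 34 of the 14234 promoters (0.239%), and its absence says only that these letters are not in these windows.

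Among the 14 genes above the range, 4 belong to the hedgehog pathway, in which a secreted ligand binds the receptor PTCH1, releases SMO and lets GLI factors switch on targets that include Ptch1, Hhip and Gli1 themselves. Ptch1 had log2 signals without LIF of 8.85, 8.94, 9.30 and 8.99 in EBRTcH3, Mbd3a, Mbd3b and Mbd3c, 11.03 in MBD-deleted, and 10.24, 10.17 and 10.18 in Empty, CC-deleted and MBD-and-CC-deleted. MBD-deleted was the highest of all 8 lines, above the lines without a coiled coil as well. Its signal was 4.03-fold that of the 4 lines (difference 2.01, SE 0.16, mean of the 4 at 9.02 ± 0.20, SD, n = 4).

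Hhip, which encodes a membrane protein that captures hedgehog ligands, was at 4.74, 5.38, 5.59 and 5.68 in the same 4 lines, 7.39 in MBD-deleted and 7.84, 7.63 and 7.84 in the lines without a coiled coil. Gli1 was at 6.57, 7.15, 7.07 and 7.16 in the 4 lines, 8.35 in MBD-deleted and 8.60, 8.28 and 8.01 in the other 3. For both genes MBD-deleted lay apart from the 4 lines and next to or within the lines without a coiled coil. Nkx2-9, a homeobox gene of the ventral neural tube that responds to hedgehog signals, was at 5.95 to 6.58 in the 4 lines, 7.63 in MBD-deleted and 6.76 to 7.08 in the lines without a coiled coil. MBD-deleted was again the highest of the 8.

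Before LIF was withdrawn these genes stood otherwise. Hhip was at 8.99, 9.60, 10.06 and 9.60 in the 4 lines with LIF and 9.70 in MBD-deleted, inside their range. Gli1 was at 8.96, 8.91, 9.02 and 8.99 and 8.88 in MBD-deleted, 0.03 under their range. Both were high in all 5 lines with LIF and low without it in the 4 lines, while MBD-deleted kept more of the signal: the difference without minus with LIF was -2.31 for Hhip in MBD-deleted against a mean of -4.22 ± 0.23 (SD, n = 4), and -0.53 against -1.98 ± 0.28 for Gli1. The arrays without LIF that chose the genes enter these responses. Neither difference of responses passed limma (adjusted p = 0.194 and 0.0742). Ptch1 was already 0.45 above the range with LIF, at 10.12 against 9.50 to 9.67. Its response was 0.91 against -0.58 ± 0.15, a difference of 1.49 (SE 0.19). The arrays without LIF that chose Ptch1 enter this response too, so the difference is a description.

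The rest of the pathway, from a list written after these values were seen, mostly lay near the range. Of 25 listed genes tested, 4 were above by the gap (0.0612% of all tested genes were) and 0 below. These 4 were known to be above when the list was written, so nothing is read from that count. By some amount 8 listed genes lay above the range and 9 below. The median difference from the 4 lines was -0.01, beside 0.01 over all tested genes. The ligand genes Shh, Ihh and Dhh were at 6.38, 5.56 and 5.12 in MBD-deleted, within 0.03 of the range of the 4 lines. Smo was at 9.50 in MBD-deleted and 9.55 to 9.72 in the 4 lines. Of the GLI factors other than Gli1, Gli2 was at 7.56 against 7.29 to 7.60, and Gli3 at 7.89 against 7.95 to 8.56. Cdon, a coreceptor, was 0.45 below the range, at 8.07 against 8.52 to 8.71.

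**Figure D1:**
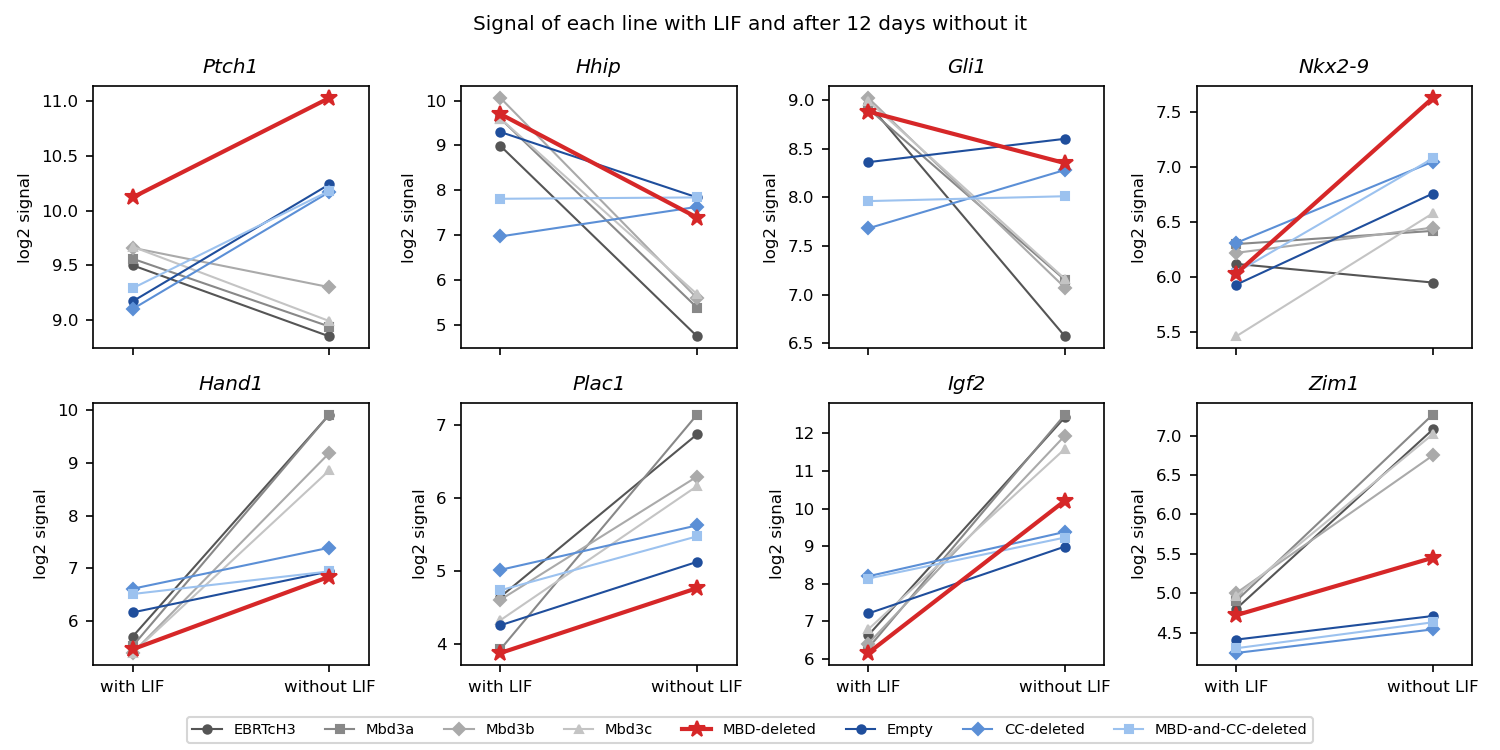
Log2 signal (vertical, each panel on its own scale) of 8 genes in each of the 8 lines with LIF and after 12 days without it; each line joins the 2 arrays of a cell line. With LIF MBD-deleted (red) lies inside the range of the 4 other lines with a coiled coil for Hhip and 0.03 under it for Gli1; without LIF it lies above them, at 7.39 and 8.35; Hand1, Plac1, Igf2 and Zim1 climb steeply in the 4 other lines and less in MBD-deleted.

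The other genes above the range came from several groups. Khdc3, which encodes a component of a maternal protein complex of oocytes and early embryos, was at 4.99, 5.34, 5.28 and 5.33 in the 4 lines, 7.23 in MBD-deleted and 7.08 to 7.22 in the lines without a coiled coil. MBD-deleted was at the level of the lines without a coiled coil, with 3.99-fold the signal of the 4 (difference 2.00, SE 0.15). Pof1b, for an actin-binding protein, was at 3.86 to 4.99 in the 4 lines, 6.89 in MBD-deleted and 5.76 to 6.25 in the other 3, and had the largest gap, 1.90; the EBRTcH3 value lay under the 40th percentile of its array, where signal is hard to tell from background. Id4, a gene induced by BMP signals whose product blocks helix-loop-helix transcription factors, was at 6.09 to 6.29, 7.51 and 6.78 to 7.07.

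Fgf18, a growth factor gene, was at 6.56 to 6.74 in the 4 lines, 7.80 in MBD-deleted and 8.12 to 8.17 without a coiled coil; Hipk2, for a nuclear kinase, was at 7.90 to 8.12, 9.14 and 9.42 to 9.52. In both, MBD-deleted lay nearer to the lines without a coiled coil than to the 4. Serpinb6c, a protease inhibitor gene, was at 4.79 to 5.61, 6.97 and 6.97 to 7.60, and Napsa, for an aspartic protease, at 6.05 to 6.35, 7.42 and 7.97 to 8.38. Cpsf4l, related to a polyadenylation factor gene, was at 6.94 to 7.18, 8.42 and 8.16 to 8.70. These 3, with Hhip and Gli1, were the 5 genes above the range whose signal was lower by 1 or more without LIF in all 4 lines. Of all tested genes 204 were lower by as much (0.892%). The choice favours such genes, since those above the range had to be lower in the 4 lines without LIF than in MBD-deleted.

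For Cnr1 and Kctd12b, Empty lay on the other side of the range. Cnr1, the cannabinoid receptor gene, was at 4.63, 5.03, 5.68 and 5.23 in the 4 lines, 6.83 in MBD-deleted and 4.61, 4.65 and 4.49 in the lines without a coiled coil. Kctd12b, for a protein with a BTB domain, was at 5.16, 4.99, 5.23 and 5.46, then 6.48, then 3.50, 3.40 and 3.68. MBD-deleted was the highest of the 8 lines for both genes; the lines without a coiled coil were the lowest for Kctd12b and stood at the level of EBRTcH3 for Cnr1. With LIF neither was above the range: Cnr1 was at 4.59 in MBD-deleted against 4.34 to 4.89, and Kctd12b at 4.34 against 4.70 to 5.21. For Kctd12b the lines without a coiled coil were under the 40th percentile of their arrays, where signal is hard to tell from background, so their distance from MBD-deleted has no exact size.

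**Figure D2:**
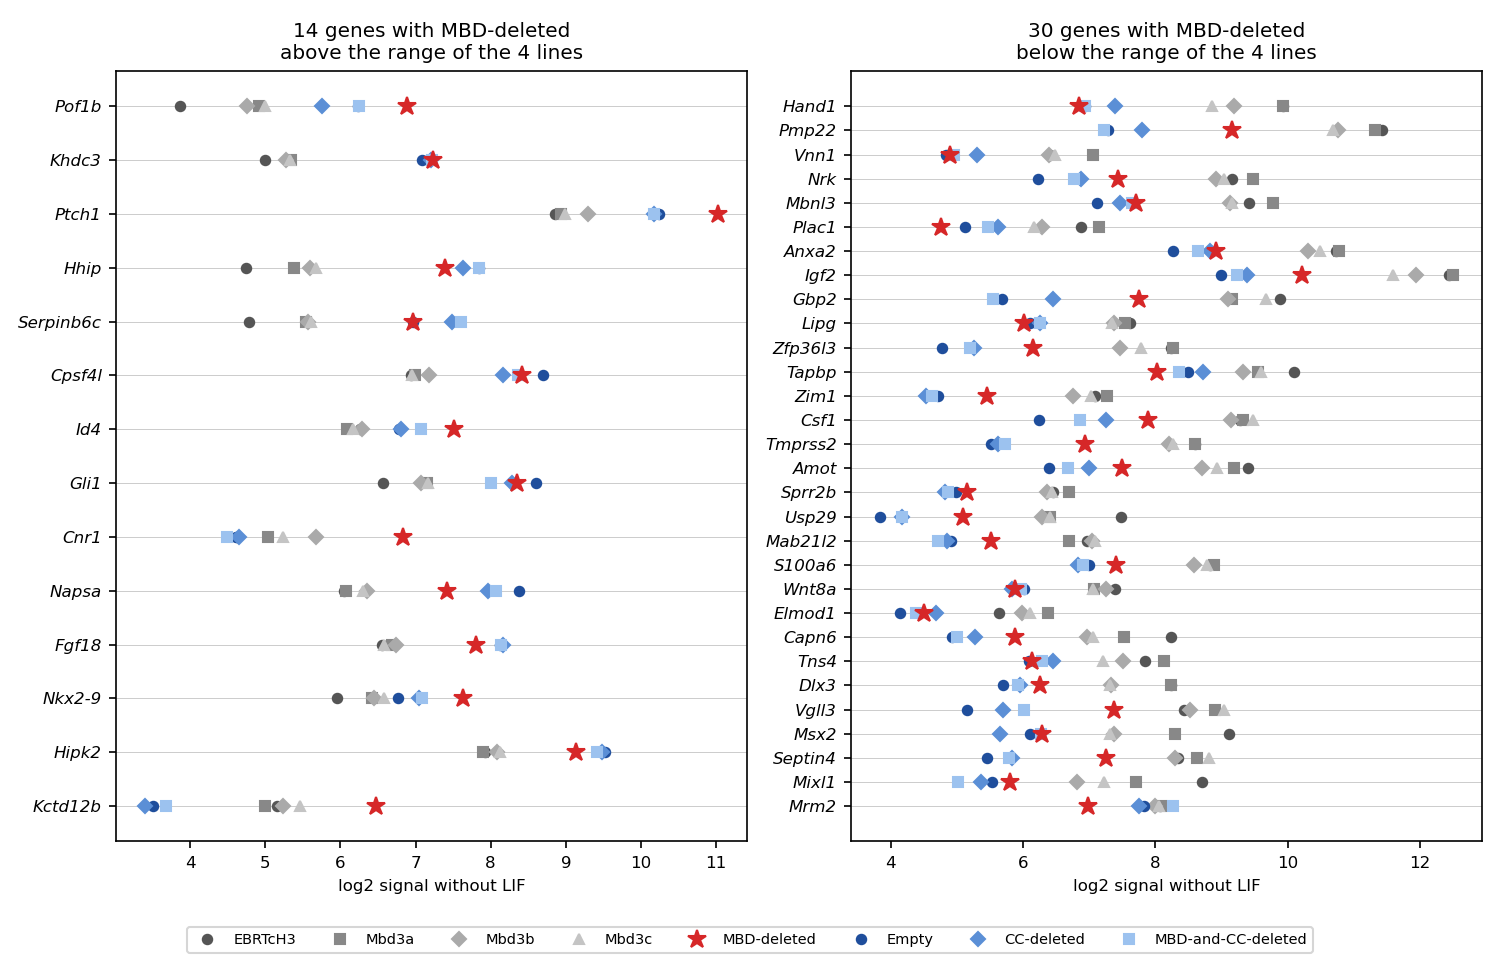
Log2 signal without LIF (horizontal) of the 14 genes above and the 30 genes with a named symbol below the range of EBRTcH3, Mbd3a, Mbd3b and Mbd3c (grey), with MBD-deleted in red and the 3 lines without a coiled coil in blue. In the left panel MBD-deleted lies on the side of the blue lines except for Cnr1 and Kctd12b; in the right panel it mostly lies between grey and blue.

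Of the 31 genes below the range, 29 were higher by 1 or more without LIF than with it in every one of the 4 lines, as 587 of all tested genes were (2.57%); Sprr2b and Mrm2 were the 2 that were not. In MBD-deleted 29 of the 31 were higher without LIF too, by less than the mean of the 4 lines, while the same 2 genes were lower. The choice favours both: such genes had to be high in the 4 lines without LIF and lower in MBD-deleted. Several are genes of the placenta. Hand1, for a transcription factor needed in trophoblast giant cells and the heart, was at 9.92, 9.92, 9.19 and 8.86 in EBRTcH3, Mbd3a, Mbd3b and Mbd3c, 6.84 in MBD-deleted and 6.94, 7.39 and 6.94 in Empty, CC-deleted and MBD-and-CC-deleted. MBD-deleted was the lowest of the 8, at the level of Empty. With LIF Hand1 was at 5.46 in MBD-deleted, inside the range of 5.39 to 5.70 of the 4 lines. Its response was 1.38 in MBD-deleted against 3.97 ± 0.42 (SD, n = 4) in the 4 lines, a difference of -2.59 (SE 0.32). The arrays without LIF that chose Hand1 enter this response, so the difference is a description.

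Plac1, a gene of the trophoblast, was at 6.87, 7.14, 6.29 and 6.16 in the 4 lines, 4.76 in MBD-deleted and 5.12, 5.62 and 5.47 in the others. Dlx3, a homeobox gene of placenta and skin, was at 8.24, 8.24, 7.33 and 7.31, then 6.25, then 5.70, 5.96 and 5.93. MBD-deleted had the lowest Plac1 signal of the 8 lines, and for Dlx3 it lay above the 3 lines without a coiled coil. Nrk, whose promoter is shown above and which restrains growth of the placental spongiotrophoblast, was at 9.16, 9.48, 8.92 and 9.04, then 7.44, then 6.23, 6.88 and 6.77, so that MBD-deleted lay between the groups and overlapped neither. Zfp36l3, for an RNA-binding protein of the placenta, also lay between, at 7.46 to 8.27, 6.15 and 4.77 to 5.26. Of the listed trophectoderm and trophoblast genes, 25 were tested, 2 were below the range by the gap (Hand1 and Dlx3; 0.136% of all tested genes were) and 0 above. By some amount 19 lay below it, beside 23.1% of all. The median difference of that list was -0.58, beside 0.01 over all tested genes. Other lists also lay low. Of 19 cholesterol genes 15 lay below the range by some amount and 2 above (median difference -0.56). Of 24 Wnt pathway genes 16 lay below and 1 above (-0.35), and of 26 interferon genes 16 and 1 (-0.32). In whole cultures such as these, fewer cells of a type and less RNA per cell cannot be told apart.

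Imprinted genes, which are expressed from 1 parental copy, gave 3 of 25 listed genes below the range by the gap (0.136% of all tested genes were) and 0 above. By some amount 13 of the 25 lay below it, beside 23.1% of all, and the median difference was -0.21. Igf2, the paternally expressed growth factor gene, was at 12.43, 12.50, 11.94 and 11.59 in the 4 lines, 10.21 in MBD-deleted and 8.99, 9.38 and 9.23 in the lines without a coiled coil. Zim1, shown above, was at 7.08, 7.27, 6.75 and 7.02, then 5.45, then 4.71, 4.54 and 4.63. Its neighbour in the same imprinted domain, Usp29, was at 7.48, 6.41, 6.29 and 6.41, then 5.10, then 3.84, 4.17 and 4.17. For all 3 genes MBD-deleted lay between the groups without overlap. Igf2 was still higher by 4.05 without LIF than with it in MBD-deleted, against 5.58 ± 0.59 (SD, n = 4) in the 4 lines (limma adjusted p = 0.173 for the difference). Zim1 was higher by 0.73 against 2.11 ± 0.28, a difference of -1.38 (SE 0.23). The arrays without LIF that chose Igf2 and Zim1 enter these responses, so the differences are a description.

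Signalling and immune genes made up another portion. Wnt8a, a ligand gene of early mesoderm, was at 7.06 to 7.39 in the 4 lines, 5.88 in MBD-deleted and 5.83 to 6.02 without a coiled coil. Csf1, the macrophage growth factor gene, was at 9.14 to 9.48, 7.88 and 6.24 to 7.26. Wnt8a in MBD-deleted was thus at the level of the lines without a coiled coil, while Csf1 lay between. Gbp2, an interferon-induced GTPase gene, was at 9.88, 9.16, 9.10 and 9.67, then 7.75, then 5.68, 6.45 and 5.55, and its relative Gbp7 stopped just short of the gap, at -0.97. Tapbp, for the chaperone tapasin of antigen presentation, was at 9.33 to 10.10 in the 4 lines, 8.03 in MBD-deleted and 8.36 to 8.72 without a coiled coil, so MBD-deleted was the lowest of the 8.

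Mixl1 and Msx2, homeobox genes of early mesoderm and of BMP-responsive tissues, showed that the 4 lines themselves were not alike. Mixl1 was at 8.71, 7.70, 6.82 and 7.22 in EBRTcH3, Mbd3a, Mbd3b and Mbd3c and at 5.80 in MBD-deleted; Msx2 was at 9.11, 8.29, 7.38 and 7.32 and at 6.28. EBRTcH3 was the highest in both, and MBD-deleted lay near the lines without a coiled coil, which had 5.02 to 5.53 for Mixl1 and 5.65 to 6.27 for Msx2. The remaining genes by the size of the gap included Pmp22 (myelin protein, gap -1.53), Vnn1 (pantetheinase, -1.50), Mbnl3 (splicing regulator, -1.42), Anxa2 (membrane-binding annexin, -1.39) and Lipg (endothelial lipase, -1.33). Pmp22 lay between the groups, at 9.15 in MBD-deleted against 10.68 to 11.42 in the 4 lines and 7.23 to 7.79 without a coiled coil.

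The gap of 1 cut through a continuum. Just inside the set were Mixl1, Septin4 and Mrm2, with gaps of -1.02, -1.03 and -1.01, and Kctd12b, Hipk2 and Nkx2-9, with 1.02, 1.02 and 1.05. Just left out were Dysf, Gsn and Gbp7, with -0.98, -0.97 and -0.97, and Nlrp4a, St8sia1 and Tcl1, each with 0.98. Mrm2, for a methyltransferase of mitochondrial ribosomal RNA, was the exception among the 31: it was at 7.99 to 8.09 in the 4 lines, 6.98 in MBD-deleted and 7.75 to 8.27 in the lines without a coiled coil, which overlap the 4. By position, 7 of the 31 genes below and 2 of the 14 above are on the X chromosome, where 1132 of 22650 tested genes with a known chromosome lie (5.0%).

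Placed against Empty, most of the 45 lay on its side. Of the 14 genes above the range, Empty was above it by 1 or more for 9 and by less for 3 (Ptch1, Id4 and Nkx2-9), inside it for 0, and below it for Cnr1 and Kctd12b. MBD-deleted reached or passed Empty for 6 and lay between the range and Empty for 6. Of the 31 genes below, Empty was below by 1 or more for 29 and by less for Tapbp and Mrm2. MBD-deleted reached or passed Empty for 6 (Hand1, Plac1, Lipg, Tapbp, Wnt8a and Mrm2) and lay between for 25. All 3 lines without a coiled coil were on the same side of the range as MBD-deleted for 12 of the 14 and for 30 of the 31. Over all tested genes they lay together above the range for 16.2% and below it for 17.6%. The 4 lines are the common reference of these placements, and the genes were chosen for lying outside their range, so nothing is read from the counts.

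With LIF, none of the 45 genes lay outside the range of the 4 lines by 1 or more on either side, in a comparison where 0.14% of all tested genes did (19 above, 0.0831%, and 13 below, 0.0568%). The largest gap among them with LIF was 0.75, for S100a6, a calcium-binding protein gene named here after its values were seen. Of the genes above without LIF, 8 were above the range by less than 1 with LIF, 3 were inside it and 3 below it. Of the genes below without LIF, 9 were below by less than 1 with LIF, 15 were inside and 7 above. The shares of all tested genes in these places with LIF are not given here, so nothing is read from these counts. A limma fit of the LIF arrays called 0 of 22872 genes at an adjusted p under 0.05 and 3281 at an unadjusted p under 0.05.

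The same fit of the 8 arrays without LIF, which treats the single MBD-deleted array as varying like the lines of the other classes, called 13 genes (0.0568%). Lines stand in for replicates here, so its p-values measure the spread between lines. Higher in MBD-deleted were Khdc3, Ptch1, Id4, Fgf18, Hipk2 and Nlrp4f (0.0262%), and lower were Lipg, Zim1, Wnt8a, Tmprss2, Sprr2b, S100a6 and Mab21l2 (0.0306%); Nlrp4f and the last 4 are named after their values were seen. All but Nlrp4f were among the 45, which the same arrays had chosen. The smallest adjusted p was 0.00676, for Khdc3 and Ptch1. The calls depended on how the spread was estimated. With the 5 lines with a coiled coil alone, 0 genes were called (2453 at an unadjusted p under 0.05), without CC-deleted 2, and with the run of title numbers as a covariate 0 (2168 unadjusted). With that covariate all 45 differences kept their sign and 1, that of Nkx2-9, was under 1 in size. The covariate is estimated only from Empty against CC-deleted and MBD-and-CC-deleted, so it cannot tell a run apart from a construct. These arrays also chose the 45 genes, so the kept signs are a description.

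In the response to LIF withdrawal, 59 genes differed between MBD-deleted and the 4 lines (limma adjusted p under 0.05, 0.258%), but 32 of these were entries for 5S ribosomal RNA with only 5 distinct value profiles between them. Of the other 27, 11 had a higher response in MBD-deleted (0.0481% of all tested) and 16 a lower one (with the 5S entries 48, 0.21%). The 45 genes contributed 13: Ptch1, Hipk2 and Kctd12b higher, and 10 lower, among them Hand1, Lipg, Tapbp, Zim1, Csf1 and Wnt8a. This response includes the arrays that chose the genes. The call rested on single lines, with 0 genes called without Mbd3a, without Mbd3b or without Empty (2967, 3161 and 3976 at an unadjusted p under 0.05), 2 without Mbd3c, and 0 with the title run as a covariate (1405 unadjusted).

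Against the 3 lines without a coiled coil, MBD-deleted differed in 1588 genes without LIF (6.94%), 1020 higher (4.46%) and 568 lower (2.48%) in MBD-deleted. With each array centred on its median the split was 740 higher and 883 lower, so which side was larger depends on the scaling. For the 45 genes this contrast uses the array that chose them, so their values are given without a test. Tmprss2 was higher in MBD-deleted than the mean of those 3 lines by 1.32 (SE 0.18), Pmp22 by 1.72 (SE 0.32), Gbp2 by 1.86 (SE 0.38) and Zim1 by 0.82 (SE 0.18). These genes lay between the lines with and without a coiled coil. For Hand1 the difference was -0.25 and for Wnt8a -0.06, at the level of the lines without a coiled coil.

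Beyond the 45 genes, the size of the whole response was placed in between. In EBRTcH3, 1069 genes were higher by 1 or more without LIF than with it and 581 lower, and the response of each other line was divided by that of EBRTcH3 for these genes. For the raised genes the median share was 0.89 in Mbd3a, 0.87 in Mbd3b and 0.91 in Mbd3c, 0.58 in MBD-deleted (quartiles 0.36 and 0.86), and 0.23, 0.15 and 0.09 in Empty, CC-deleted and MBD-and-CC-deleted. For the lowered genes it was 0.78, 0.75 and 0.77, then 0.42 (0.20 and 0.70), then 0.29, 0.08 and 0.14. MBD-deleted was below all 3 rescued lines and above all 3 lines without a coiled coil in both directions. The genes were chosen in EBRTcH3 alone, which draws the shares of all other lines below 1, and genes of 1 array are not replicates, so no test was made.

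Levels without LIF gave the same order. On a scale with EBRTcH3 at 0 and Empty at 1, the median of MBD-deleted was 0.44 over the 495 genes higher in Empty by 1 or more and 0.45 over the 821 genes lower in Empty. Mbd3a, Mbd3b and Mbd3c were at 0.21, 0.26 and 0.19 for the first set and 0.12, 0.24 and 0.16 for the second, and CC-deleted and MBD-and-CC-deleted at 0.97 and 0.96, and 0.87 and 0.96. With Mbd3a in place of EBRTcH3 the positions of MBD-deleted were 0.22 and 0.36. For genes at least 2 apart it was 0.21 for those higher in Empty and 0.43 for those lower.

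**Figure D3:**
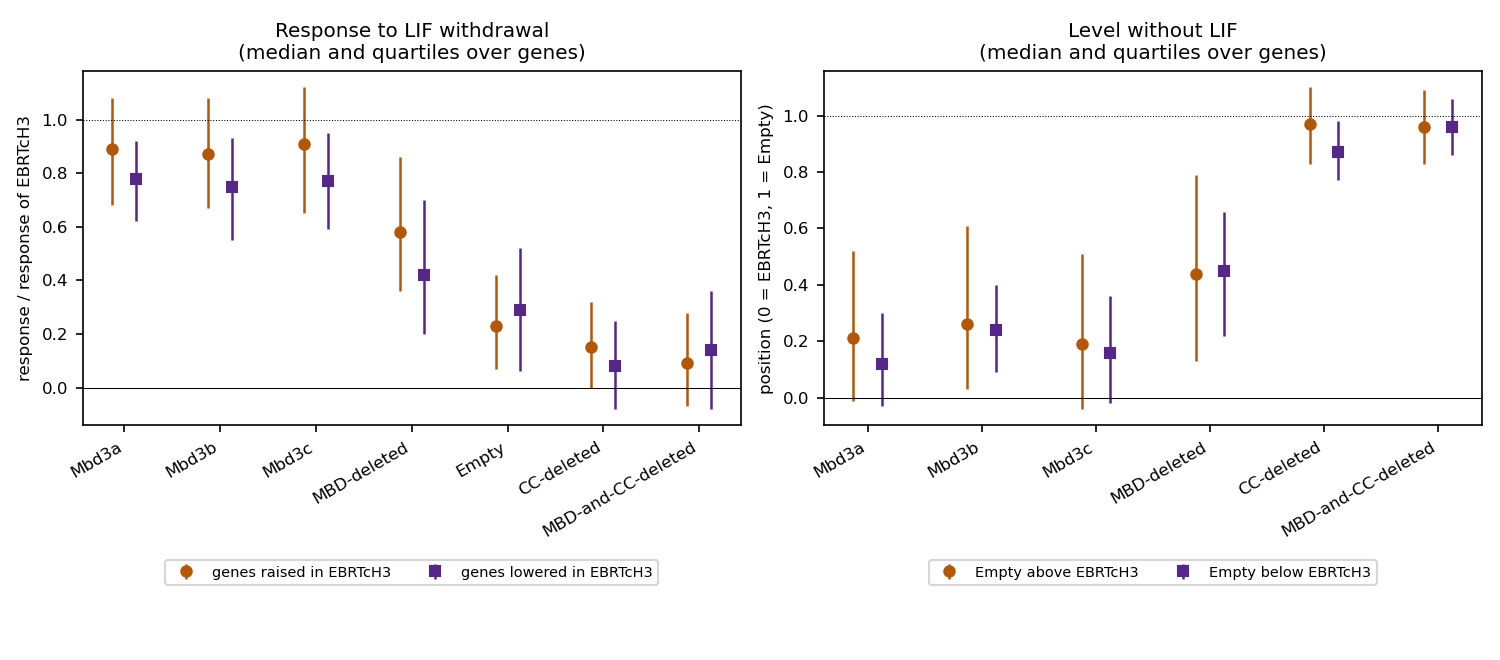
Left, response of each line to LIF withdrawal divided by that of EBRTcH3, for 1069 genes raised and 581 genes lowered in EBRTcH3; right, level without LIF on a scale from EBRTcH3 (0) to Empty (1), for 495 genes higher and 821 genes lower in Empty. Points are medians over genes and bars the quartiles; MBD-deleted, with medians of 0.58 and 0.42 on the left and 0.44 and 0.45 on the right, stands between the 3 rescued lines and the lines without a coiled coil.

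The share differed between gene groups, from a near full response to one close to Empty. Genes of smooth muscle and the actin cytoskeleton that were raised in EBRTcH3 (12 genes) had a median share of 1.09 in MBD-deleted, beside 0.97, 1.01 and 1.15 in Mbd3a, Mbd3b and Mbd3c and 0.30 in Empty. None of the 21 tested genes of that list was outside the range by the gap, and 12 were higher in MBD-deleted than in the lines without a coiled coil (limma adjusted p under 0.05; 4.46% of all tested genes were). Tpm2, for a tropomyosin, was at 8.91 to 9.12 in the 4 lines, 8.55 in MBD-deleted and 7.35 to 7.46 without a coiled coil. The 8 raised genes of the primed and formative epiblast reached 0.88, the 11 of epithelial junctions and keratins 0.85, and the 9 of primitive and extraembryonic endoderm 0.75, where the rescued lines had 0.92 to 1.27.

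At the other end, the 6 raised HOX and homeobox genes had the lowest median share in MBD-deleted, 0.16, but theirs was also low in the rescued lines, 0.32 to 0.51, beside 0.09 in Empty. The 12 raised genes of the Wnt pathway reached 0.20, beside 0.72 to 0.87 in the rescued lines and 0.14 in Empty. Lef1, the nuclear partner of beta-catenin, was at 7.95 to 8.28 in the 4 lines, 7.23 in MBD-deleted and 7.16 to 7.51 without a coiled coil. The 14 raised genes of glycolysis and hypoxia reached 0.31 (0.72 to 1.05 in the rescued lines, 0.27 in Empty), the 9 of gastrulation mesoderm 0.33 (0.58 to 0.64, 0.16) and the 17 of trophectoderm and trophoblast 0.38 (0.79 to 0.98, 0.23). Slc2a1, the main glucose transporter gene, was at 12.53 to 12.88 in the 4 lines, 12.09 in MBD-deleted and 11.19 to 11.45 without a coiled coil. Imprinted genes (11, share 0.59), cholesterol genes (12, 0.53), interferon genes (13, 0.47) and matrix genes (12, 0.43) lay in the middle. MBD-deleted lay within the rescued lines for neuroectoderm (5 genes, 0.68 against 0.64 to 0.98) and for the FGF and ERK pathway (6, 0.69 against 0.66 to 0.84). So it did for cardiac and skeletal muscle (5, 0.38 against 0.19 to 0.59). It lay under them for the TGF-beta list (12, 0.36 against 0.44 to 0.59) and the feeder list (5, 0.47 against 0.69 to 0.76).

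**Figure D4:**
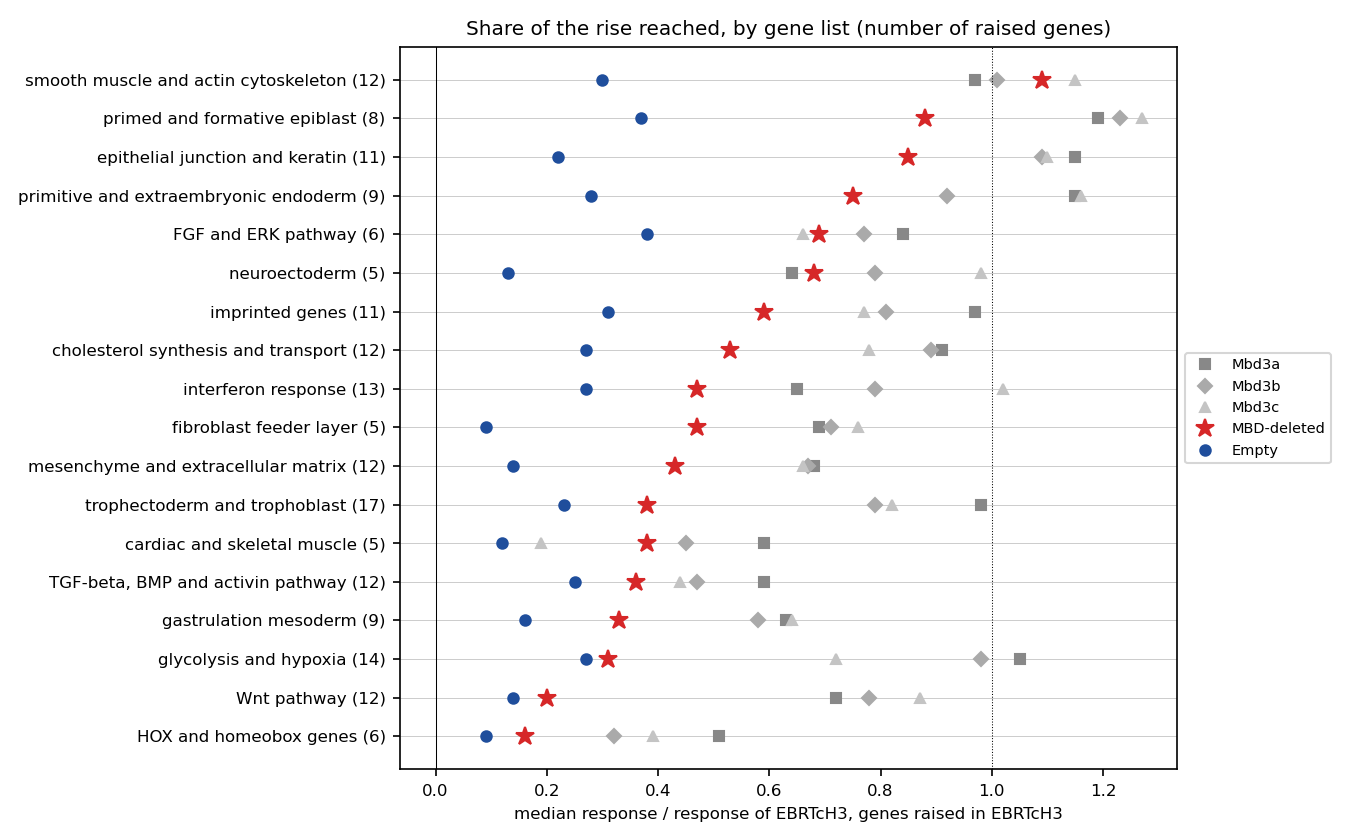
Median share of the EBRTcH3 response (horizontal) reached by Mbd3a, Mbd3b, Mbd3c (grey), MBD-deleted (red) and Empty (blue) for the genes of each list that were raised by 1 or more in EBRTcH3, with their number in brackets, for lists with at least 5. MBD-deleted ranges from 1.09 for smooth muscle and actin genes, within the rescued lines, to 0.20 for Wnt pathway genes and 0.16 for HOX and homeobox genes, next to Empty at 0.14 and 0.09.

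Among genes that go down when LIF is removed, the 19 lowered pluripotency genes reached a median share of 0.47 in MBD-deleted, beside 0.73 to 0.85 in the rescued lines and 0.21 in Empty. Of the 29 tested pluripotency genes 0 were outside the range by the gap, yet 25 lay above it by some amount (27.8% of all tested genes did), and the median difference was 0.36. Tcl1, a cofactor of AKT that ESCs express, was at 7.75 to 8.07 in the 4 lines, 9.05 in MBD-deleted and 8.67 to 9.00 without a coiled coil. Sox2 was at 10.12 to 10.64, 11.07 and 11.11 to 11.24. Sox2 in MBD-deleted lay above all 4 lines and just under the lines without a coiled coil. The 14 lowered genes of the ATF4 and CHOP stress response reached 0.78, beside 0.91 to 0.99 in the rescued lines. For these genes Empty had 0.66, CC-deleted 0.18 and MBD-and-CC-deleted 0.42. The 8 lowered LIF and STAT3 targets reached 0.68, beside 0.84 to 0.92 in the rescued lines. Here Empty had 0.69, CC-deleted 0.47 and MBD-and-CC-deleted 0.61.

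Markers of other cell types the cultures could hold were looked at in the same way. None of the tested genes of the lists for cardiac and skeletal muscle, blood and endothelium, neuroectoderm, germline and the 2-cell-like state lay outside the range by the gap, which 0.197% of all tested genes did. By some amount, 12 of 27 germline genes lay above the range and 5 below, and 9 and 7 of 21 blood and endothelial genes. For the 2-cell-like state 5 and 1 of 19 genes did. For cardiac and skeletal muscle 3 and 6 of 25 did, and for neuroectoderm 6 and 6 of 23. Over all tested genes 27.8% lay above and 23.1% below. Col1a1, the collagen gene of the fibroblast feeder list, was at 7.35 to 7.81 in the 4 lines, 6.90 in MBD-deleted and 6.72 to 6.83 in the lines without a coiled coil; 5 of the 9 tested feeder genes lay below the range by some amount, where 23.1% of all tested genes did, and 0 by the gap. The part of such cells in the results above was not tested.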

How the data were processed

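Total RNA was labelled with the Affymetrix WT Plus kit, per the labels' protocols, and the authors deposited log2 signals made by RMA with affy, per the submitters' processing notes; no version or probe set build is given in the sources used here. Of 65770 probe sets, those with 1 gene symbol in the platform annotation (30439; several for 2146, none for 33185) were reduced to the brightest per gene, with symbols updated through Entrez identifiers. A gene was tested where its signal exceeded its array's 40th percentile on 3 or more of 16 arrays (22872 genes). Array medians ran from 4.72 to 4.85, and the number of arrays limits the precision.

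Contrasts were tested by limma 3.58.1 under R 4.3.3 (lmFit, eBayes, Benjamini-Hochberg over all tested genes) on 3 classes of lines: the 4, MBD-deleted, and the 3 without a coiled coil. The response was fitted on the difference between the 2 arrays of each line, a pairing given by the labels. The scripts were tested on simulated data.

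The genes, the 28 gene lists and the tests were chosen with earlier results of these data known, and the hedgehog list after its values were seen. Genes named are Mbd3, the 14 largest gaps on each side among named symbols, up to 2 further members of each list past the gap (where none, the member with the smallest p), and the 3 on each side of the threshold; exceptions are stated.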

Additional observations from a re-analysis of the deposited data

Results flagged for a closer look

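For 10 of the genes named above, 1 of the 4 lines EBRTcH3, Mbd3a, Mbd3b and Mbd3c stood apart from the other 3 by Dixon's criterion, which chance meets in about 1 of 20 groups. EBRTcH3 stood apart in 6 of these 10. Without LIF it was the low line for Serpinb6c, at 4.79 against 5.54 to 5.61, and for Gli1, at 6.57 against 7.07 to 7.16. It was the high line for Usp29, at 7.48 against 6.29 to 6.41, and for Gbp7, at 7.52 against 6.42 to 6.46. With LIF it was low for Mbnl3, at 6.59 against 7.28 to 7.31, and high for Lef1, at 5.69 against 5.22 to 5.25. Mbd3a was high without LIF for Vnn1, at 7.06 against 6.39 to 6.48, and for Gsn, at 9.85 against 9.42 to 9.49. Dlx3 in Mbd3b with LIF was at 5.50 against 5.66 to 5.69, and Mbd3 in Mbd3c with LIF was at 8.65 against 9.09 to 9.15.

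The response to LIF withdrawal differed between MBD-deleted and the 4 lines, by limma over 8 lines, for 10 named genes. MBD-deleted had the higher response for Ptch1 by 1.49, Hipk2 by 1.37 and Kctd12b by 1.92. It had the lower response for Hand1 (-2.59), Lipg (-1.64), Tapbp (-1.64), Zim1 (-1.38), Csf1 (-1.70), Wnt8a (-1.49) and Dysf (-1.35). These genes, other than Dysf, were chosen for a difference on the arrays without LIF that enter the response.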

How the results depend on the processing

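The number of arrays and the distance from background limit these values: 1 array stands for MBD-deleted in each medium, and dim genes were tested only where 3 arrays lay above the 40th percentile. Of the single-gene values recomputed, 484 for genes outside the range and 418 for other named genes kept their direction and their side of the threshold. Another 46 and 12 passed it only under the alternative, and 28 values of genes outside the range no longer passed it. No single-gene value changed direction. Of the gene-list medians, which have no test, 26 moved by more than the spread between lines. The genes outside the range without LIF numbered 14 above and 31 below; a gap of 0.5 gave 179 and 288, and a gap of 1.5 gave 4 and 4. Leaving out 1 of the 4 lines gave 18 to 23 above (23 without Mbd3b or without Mbd3c) and 33 to 56 below (56 without Mbd3b). With LIF, the 19 above and 13 below became 600 and 316 at a gap of 0.5 and 0 and 2 at a gap of 1.5, and the 19 became 10 with arrays centred on the median and 10 after another quantile normalization; leaving out a line gave 21 to 37 above (37 without EBRTcH3) and 16 to 23 below (23 without Mbd3a).

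The 13 limma calls without LIF became 0 with the 5 lines with a coiled coil alone, 0 with the title run as a covariate, 53 with a trended and robust prior, and 2 to 35 with a line left out (35 without EBRTcH3, 2 without CC-deleted, 6 without MBD-and-CC-deleted). The pairing of the 2 arrays of a line was held in the response fit; all 16 arrays fitted together with no such block gave 76 calls for the response in place of 59, 115 without LIF, 2 with LIF in place of 0, and 1422 against the lines without a coiled coil. The 59 response calls became 0 with the title run, 34 with the trended prior, and 0 to 65 with a line left out (0 without Mbd3a, Mbd3b or Empty, 2 without Mbd3c). The 1588 differences from the lines without a coiled coil became 1030 with the title run and 913 to 2065 with a line left out (1030 without Empty, 913 without MBD-and-CC-deleted). The cause of these changes was not tested beyond the smaller number of lines.

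The median share of raised genes, 0.58, was 0.61 with the filter at the 60th percentile, 0.60 with centred arrays, 0.61 after quantile normalization, 0.65 for genes changed by 2 or more and 0.66 with Mbd3a in place of EBRTcH3; that of lowered genes, 0.42, was 0.43, 0.52 and 0.48 under the last 3. The positions of 0.44 and 0.45 were 0.22 and 0.36 with Mbd3a in place of EBRTcH3, and the first was 0.21 for genes at least 2 apart. Leaving out another line gives no other value for shares and positions, which use each line alone.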

Other observations

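Some genes that lay under the gap showed MBD-deleted between the 4 lines and the lines without a coiled coil. Pecam1, an adhesion receptor of endothelium that ESCs also express, was at 8.51 to 9.03 in the 4 lines without LIF, 9.77 in MBD-deleted and 9.96 to 10.21 without a coiled coil. Sall1, a zinc finger partner of NuRD, was at 8.49 to 9.03, 9.72 and 10.11 to 10.34, and Dnmt3l, a cofactor of the DNA methyltransferases, at 10.01 to 10.29, 10.68 and 11.21 to 11.41. In these 3 genes MBD-deleted lay between the groups. All 3 were named for the smallest limma p of their lists, in a fit that uses the same MBD-deleted array, so their values are a description.

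A few genes set MBD-deleted apart from all 7 other lines without LIF. Foxa2, a factor of endoderm and floor plate, was at 6.25 in MBD-deleted, 5.35 to 5.69 in the 4 lines and 5.34 to 5.44 without a coiled coil. Mthfd2, a mitochondrial enzyme of folate metabolism, was at 9.01 against 8.15 to 8.34 and 8.30 to 8.52. Sesn1, a p53 target, was lower in MBD-deleted, at 6.52 against 6.89 to 6.96 and 7.03 to 7.18. None of the 3 passed limma against the 4 lines. They were named for the smallest p of their lists in that fit, which uses the same MBD-deleted array. Their distance from the other 7 lines is therefore a description.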
